A study of Saccharomyces cerevisiae with 4 samples.

Results

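The phosphate regulon of budding yeast was described across 4 arrays through 10 of its genes, out of 5343 genes measured under a gene name. They were chosen by name, with earlier results of these data known. They are the transporters PHO84 and PHO89, the phosphatases PHO5, PHO8 and PHM8, the polyphosphate genes VTC1, VTC3 and VTC4, the transport regulator SPL2, and PHM6. Each had 1 probe set, and all 10 were measured. In the arrays of nps1-13, PHO84 and PHM6 fell more than 2-fold relative to the median gene, PHO5, PHO8, PHM8, VTC3 and VTC4 fell by smaller amounts, and PHO89, SPL2 and VTC1 lay close to the median gene, with each array centred on its median. After quantile normalization those 3 were called lower too, and at -0.38, -0.22 and -0.22 on the log2 scale they lay no nearer to 0 than PHM8 (-0.21).

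Yeast cells sense phosphate through the cyclin and kinase pair Pho80 and Pho85, which keep the activator Pho4 phosphorylated and outside the nucleus while phosphate is plentiful. When phosphate runs short, the inhibitor Pho81 blocks the kinase, and Pho4 enters the nucleus and acts with Pho2 on genes for phosphate uptake, for phosphatases that release phosphate from organic compounds, and for the vacuolar store of polyphosphate. The promoters of PHO5, PHO8 and PHO84 are textbook cases of genes whose activation goes with the removal of nucleosomes, and Nps1 (Sth1) is the ATPase of RSC, a complex that moves and ejects nucleosomes.

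WT was the diploid strain BY4743, homozygous for his3Δ1, leu2Δ0 and ura3Δ0, with MET15 and LYS2 each deleted in 1 copy (met15Δ0 and lys2Δ0). The mutant strain, BYI-3, is listed as a diploid homozygous for nps1-13, a temperature-sensitive allele with substitutions in the bromodomain, and for his3Δ1, leu2Δ0, ura3Δ0 and met15Δ0. Both strains were pre-grown in glucose medium (YPD) and then kept for 4 h at 28°C in ethanol and glycerol medium (YPEG), a rich medium on which growth needs respiration. Total RNA of each strain was hybridized to 2 Affymetrix Yeast Genome 2.0 arrays. Whether the 2 arrays of a strain came from separate cultures is not given in the sources used here, so p-values measure only the spread between arrays, which may be technical.

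Before the results, 2 features of the arrays bear on every comparison. The WT arrays were brighter, with median deposited signals of 3051 and 2770 against 2158 and 2024 for nps1-13, and the median gene was at -0.41 on the log2 scale before any centring. Log2 fold changes are therefore given after each array was centred on its median, which adds 0.47 to every gene and leaves the median gene at 0.065, while signals are printed as deposited. The other feature is the mating type. HMRA1, the probe set of the a1 transcript that a/α diploids make, had 1748 ± 210.1 in WT and 3.50 ± 3.68 in nps1-13, and the α-specific gene STE3 had 94.2 ± 11.5 and 4072 ± 59.1 (SD, n = 2 arrays each). Of 14 mating-type markers, the 8 specific to α cells or to haploids were higher in nps1-13. Lower were 3, HMRA1 and the a-specific genes STE2 and STE6. The 3 that did not pass were also a-specific, with centred log2 fold changes of 0.36 (MFA1), 0.30 (BAR1) and -0.29 (MFA2). LEU2, listed as deleted in each strain, gave 25.6 ± 16.3 in WT and 4336 ± 156 in nps1-13. The nps1-13 arrays thus go against the a/α genotype listed for BYI-3, and hold a LEU2 signal that leu2Δ0 alone would not give. The paper made its diploid null mutants of RSC1, RSC2 and RSC7 with an HO plasmid on YEp13, which carries LEU2. Whether BYI-3 held such a plasmid is not stated, and the source of the LEU2 signal was not tested. The arrays do not measure ploidy, so whether the nps1-13 cells were diploid as listed is not shown. Effects of mating type, ploidy, LEU2 or the listed MET15 and LYS2 differences cannot be told apart from those of the nps1-13 allele. MET17 (MET15), absent by genotype from the mutant, had 3961 ± 110.2 in WT and 16.9 ± 1.20 in nps1-13, as the genotypes have it. HIS3, listed as his3Δ1 in both strains, still gave 3074 ± 370 in WT and 2679 ± 172 in nps1-13. LYS2 gave 1289 ± 115 in WT and 1299 ± 102 in nps1-13. STH1, the mutated gene, gave 6972 ± 633 in nps1-13 and 4694 ± 455 in WT, a level that does not check a substitution allele.

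With the arrays centred, 7 of the 10 phosphate genes were lower in nps1-13 by limma at an adjusted p under 0.05, 0 were higher and 3 did not pass. Over all 5343 genes, 34.7% were called lower and 42.6% higher by the same rule, so that most genes were called one way or the other. Past 2-fold, 2 of the 10 were lower and 0 higher, where 5.03% of all genes were lower and 4.83% higher. The median log2 fold change of the 10 genes was -0.70. In 8 of the 10 both nps1-13 arrays lay below both WT arrays after centring, against 40.4% of all genes. The other 2, VTC1 and SPL2, had overlapping arrays on this scale. On the deposited scale, where 64.3% of all genes were called lower, all 10 were, and 6 were past 2-fold lower, against 16.7% of all genes. After quantile normalization all 10 were called lower as well, with 37.7% of all genes, and 2 were past 2-fold lower, with 4.88%. When the arrays were scaled to a common trimmed mean, the global scaling that the methods describe, all 10 were again lower, with 43.3% of all genes, and 2 were past 2-fold, with 7.19%.

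**Figure D1:**
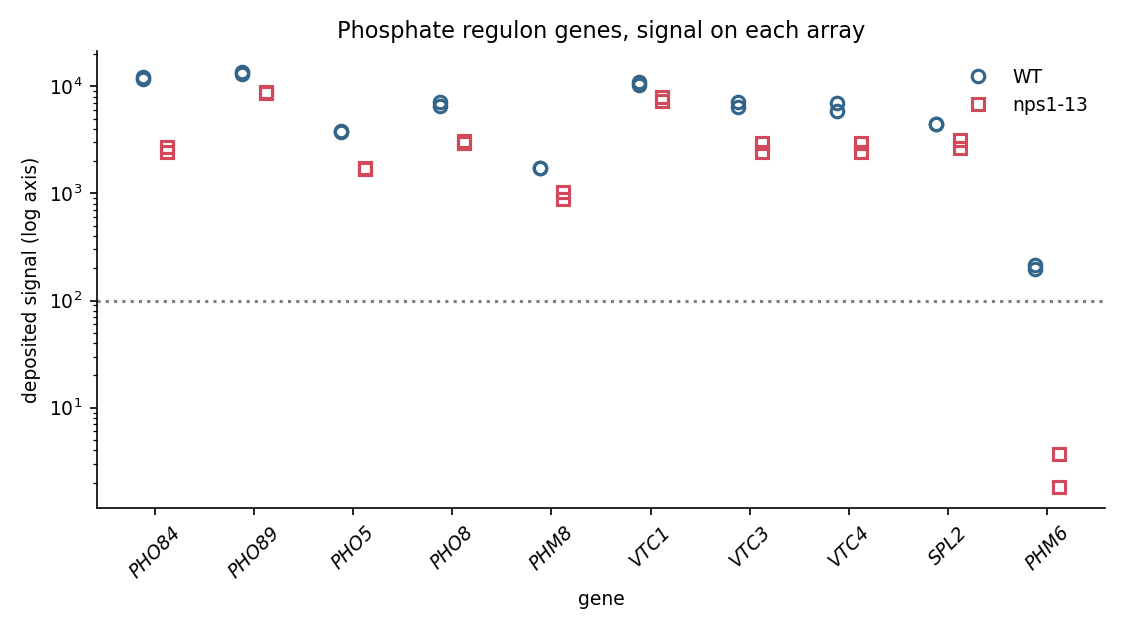
Deposited signal on each of the 4 arrays (log axis) for the 10 phosphate regulon genes, with WT as circles and nps1-13 as squares; the dotted line marks a signal of 100. In every gene both nps1-13 arrays sit below both WT arrays before centring, and PHM6 alone drops under 100. The WT arrays were brighter on this scale, where limma called 64.3% of all genes lower. The share of all genes with this order of arrays was not counted before centring.

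The high-affinity transporters differed from each other. PHO84 encodes the proton-coupled phosphate transporter of the plasma membrane, the main route of uptake when phosphate is scarce. Its signal was 12304 and 11720 in WT and 2723 and 2434 in nps1-13, and the strains did not overlap on either scale. With the arrays centred, PHO84 fell 3.36-fold, at -1.75 on the log2 scale with a standard error (SE) of 0.050 and a limma adjusted p of 5.5e-09. Only 50 of the 5343 genes had a lower log2 fold change. Across the 4 pairs of a WT and an nps1-13 array the change ran from -1.81 to -1.68, a spread much smaller than the change itself. PHO89 encodes the sodium-coupled transporter, which works at alkaline pH. Its signal was 13763 and 13154 in WT and 8695 and 8901 in nps1-13. Its centred log2 fold change of -0.14 did not pass (95% interval -0.28 to 0.0038, limma adjusted p = 0.069), although it passed on the 3 other scales, at -0.61 as deposited, -0.38 after quantile normalization and -0.27 with a common trimmed mean. Without nps1-13 replicate 2 it was at -0.20 and passed when centred (limma adjusted p = 0.024). Bright genes as a group were higher on the centred scale than all genes together. Among 592 genes with a mean WT signal above 10000, the median centred log2 fold change was 0.22, and -0.054 after quantile normalization. Over all genes it was 0.065 and -0.0095. PHO84, PHO89 and VTC1 were among the bright genes.

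All 3 phosphatase genes were lower. PHO5, the secreted acid phosphatase whose promoter is a model of nucleosome removal, had 3819 and 3782 in WT and 1695 and 1720 in nps1-13. The arrays of each strain were close together as deposited, while the centred change of PHO5 ran from -0.80 to -0.56 across the 4 pairs. Its log2 fold change was -0.68 (SE 0.063, limma adjusted p = 6.5e-06), or 1.60-fold lower. PHO8, the alkaline phosphatase of the vacuole, had 7195 and 6590 in WT and 3122 and 2931 in nps1-13. It changed by nearly the same amount in each of the 4 pairs of arrays, from -0.72 to -0.70, and its log2 fold change was -0.71 (SE 0.045, limma adjusted p = 5.1e-07). PHM8 encodes an enzyme that acts on lysophosphatidic acid and on nucleotides. With 1728 and 1714 in WT and 1030 and 894 in nps1-13 it had the smallest change of the 3, -0.37 (SE 0.073, limma adjusted p = 0.0012), and -0.21 after quantile normalization. PHO5 has close relatives in PHO3, PHO11 and PHO12, and whether their transcripts also bind its probes was not tested.

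The polyphosphate genes split. The VTC complex sits in the vacuolar membrane and both makes polyphosphate and passes it into the vacuole. VTC4, its catalytic subunit, had 7015 and 5849 in WT and 2976 and 2427 in nps1-13, and fell by 0.78 on the log2 scale (SE 0.070, limma adjusted p = 5.6e-06). VTC3, an accessory subunit, had 7215 and 6488 in WT and 2987 and 2440 in nps1-13, and fell by 0.87 (SE 0.064, limma adjusted p = 1.4e-06). In both genes the higher array of nps1-13 stayed far under the lower array of WT. VTC1, the small membrane subunit common to all forms of the complex, had 11079 and 10328 in WT and 7917 and 7349 in nps1-13. That drop was close to the 0.47 that centring adds to every gene: the centred log2 fold change was -0.013 (95% interval -0.13 to 0.10, limma adjusted p = 0.82), and the strains overlapped. It was called lower as deposited (-0.49), after quantile normalization (-0.22) and with a common trimmed mean (-0.14). The intervals of VTC3 (-1.01 to -0.72) and VTC4 (-0.94 to -0.62) lay apart from that of VTC1, and on the 4 scales the change of VTC1 was the smallest of the 3. VTC2, the alternative to VTC3 in the complex and not among the 10 genes, had 5550 and 4658 in WT and 3163 and 2736 in nps1-13, at a log2 fold change of -0.31 (SE 0.059, limma adjusted p = 0.00077).

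SPL2 encodes a small protein that restrains low-affinity phosphate uptake when phosphate is scarce. Its signal was 4432 and 4488 in WT and 3192 and 2663 in nps1-13. After centring the strains overlapped, and the log2 fold change of -0.14 did not pass (95% interval -0.29 to 0.018, limma adjusted p = 0.094), while it was called lower as deposited (-0.61), after quantile normalization (-0.22) and with a common trimmed mean (-0.27). When centred it passed without WT replicate 1 (-0.22, limma adjusted p = 0.032) and without nps1-13 replicate 1 (-0.22, adjusted p = 0.036). PHM6, a gene of unknown function that responds to phosphate through Pho4, stood at the other end. It had 213 and 195 in WT and 1.80 and 3.70 in nps1-13. The fitted log2 fold change was -5.83 (SE 0.43, limma adjusted p = 1.3e-06). Signals under 100 are not told from background here, and the deposited values used carry no detection calls, so the size is not resolved. With 32 added to every signal PHM6 was 5.81-fold lower, and PHO84 3.33-fold.

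**Figure D2:**
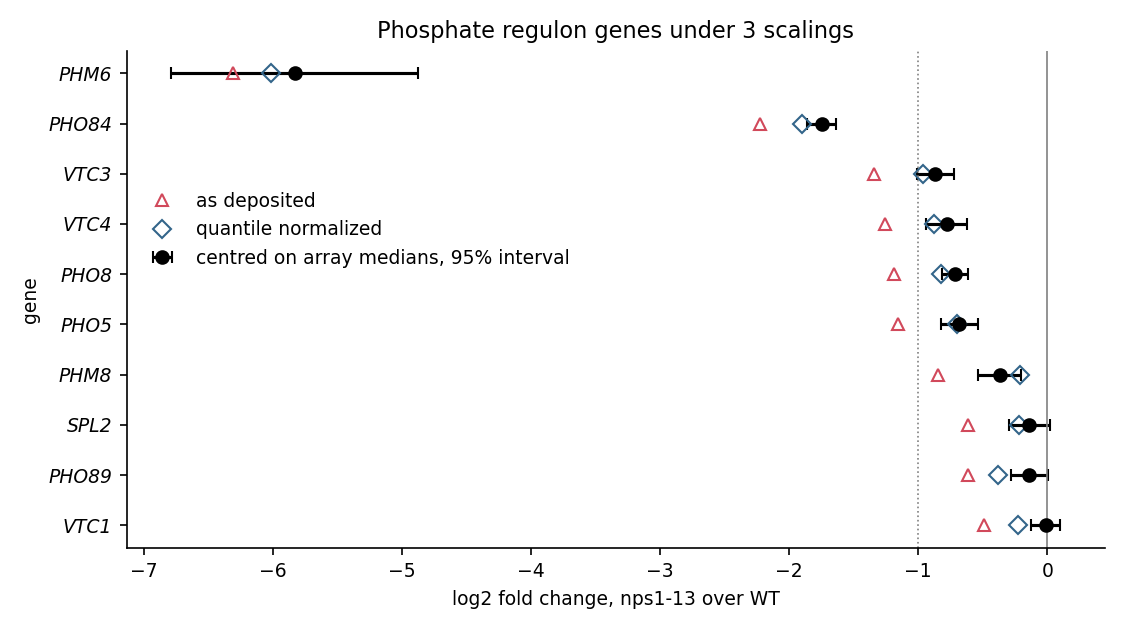
Log2 fold change of each phosphate regulon gene, nps1-13 over WT, ordered by size; filled circles with bars give the value with arrays centred on their medians and its 95% interval, triangles the value as deposited and diamonds the value after quantile normalization. PHM6, whose size is not resolved, and PHO84 (-1.75) lie beyond 2-fold (dotted line) on all 3 scales, and VTC1 (-0.013), PHO89 (-0.14) and SPL2 (-0.14) have centred intervals that cover 0.

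Beside these 10, a list of 34 other genes of phosphate handling was drawn up from knowledge of the pathway, of which 30 were measured under their names and PHO11, PHO12, VTC5 and PPN2 were not analysed here. After centring, 11 of them were called lower in nps1-13, 11 were called higher and 8 were not called, next to 34.7% lower and 42.6% higher of all genes. Past 2-fold were GIT1 and PPX1 as lower and DIA3 and KCS1 as higher, next to 5.03% and 4.83% of all genes. The median log2 fold change of the 30 was -0.026, near the 0.065 of all genes, where that of the 10 phosphate regulon genes was -0.70. As deposited 21 were lower and 5 higher, where 64.3% and 9.41% of all genes were, and past 2-fold 4 were lower and 1 higher, with 16.7% and 2.02% of all genes.

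Among the genes of the signalling pathway itself, changes were small. PHO4, the activator, had 4446 and 4041 in WT and 3250 and 2954 in nps1-13, a centred log2 fold change of 0.023 (95% interval -0.082 to 0.13, limma adjusted p = 0.67), which was below 0 on the 3 other scales (-0.45 as deposited, where it was called lower, -0.062 after quantile normalization and -0.11 with a common trimmed mean). PHO80, the cyclin, and PHO85, the kinase, had -0.028 (95% interval -0.19 to 0.13) and -0.067 (95% interval -0.17 to 0.034), and neither passed when centred. PHO85 was called lower as deposited (-0.54), after quantile normalization (-0.20) and with a common trimmed mean (-0.20), and PHO80 as deposited (-0.50). PHO80 was at 0.077 without nps1-13 replicate 1, where it did not pass either. PHO2, the homeodomain partner of Pho4, was higher at 0.34 (limma adjusted p = 0.00090) but at -0.14 as deposited, where it did not pass. PHO81, the inhibitor of the kinase and itself a Pho4 target, was lower. It had 4080 and 3571 in WT and 2403 and 2148 in nps1-13, at a log2 fold change of -0.27 (SE 0.051, limma adjusted p = 0.00080). None of these 5 genes reached 2-fold on the centred or the deposited scale.

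Transporters outside the 10 genes moved in both directions. GIT1, which takes up glycerophosphoinositol, a further source of phosphate, had 1022 and 846 in WT and 349.9 and 287 in nps1-13 and fell 2.11-fold (log2 fold change -1.08, SE 0.10, limma adjusted p = 8.0e-06). GDE1, whose product cleaves glycerophosphocholine inside the cell, fell with -0.73 (SE 0.068), from 2254 and 1920 to 906 and 902. Of the low-affinity phosphate transporters of the plasma membrane, PHO87 was lower by a small amount (-0.15, SE 0.048) and PHO90 was higher when centred (0.45, SE 0.048), with 7417 and 6595 in WT and 7202 and 6575 in nps1-13. The deposited signals of PHO90 overlapped between the strains, and its log2 fold change on that scale was -0.023. PHO87 did not pass without WT replicate 1 (-0.14) or without WT replicate 2 (-0.17), and GIT1 was just under 2-fold without nps1-13 replicate 2 (-0.98) and after quantile normalization (-0.96). PHO91, the transporter of the vacuolar membrane, did not pass when centred (-0.098, 95% interval -0.21 to 0.019), and was called lower as deposited (-0.57) and with a common trimmed mean (-0.23). SYG1, which like several of these proteins carries an SPX domain, was at 0.44 when centred and at -0.037 as deposited.

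The acid phosphatases other than PHO5 were measured for PHO3 and DIA3. PHO3, the constitutive enzyme encoded beside PHO5, was lower at -0.33 (SE 0.070, limma adjusted p = 0.0017), from 1925 and 1886 to 1083 and 1097. DIA3, which encodes a protein related to the acid phosphatases, was higher, where PHO5 and PHO3 were lower. It had 1946 and 1916 in WT and 4503 and 4212 in nps1-13, a log2 fold change of 1.65 (SE 0.054, limma adjusted p = 1.2e-08), and it was above 2-fold as deposited too, at 1.17.

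Genes that break down polyphosphate or act on inositol phosphates, some of which serve as signals of phosphate status, also changed. PPX1, the exopolyphosphatase of the cytosol, had 3159 and 2968 in WT and 892 and 931 in nps1-13 and fell 2.42-fold (log2 fold change -1.27, SE 0.068, limma adjusted p = 1.7e-07). DDP1, a phosphatase of polyphosphate and inositol pyrophosphates, fell with -0.40 (SE 0.052), and PPN1, the endopolyphosphatase of the vacuole, did not pass when centred (-0.084, 95% interval -0.19 to 0.023) but was called lower as deposited (-0.56), after quantile normalization (-0.24) and with a common trimmed mean (-0.21). KCS1, a kinase that makes inositol pyrophosphates, rose from 4025 and 3478 to 6310 and 5633, which is 1.15 on the log2 scale (SE 0.050, limma adjusted p = 5.3e-08) and 0.67 as deposited. VIP1, the other kinase of this kind, was lower at -0.32 (SE 0.048). PLC1, the phospholipase C that starts the pathway, was at 0.82 and IPK1, which makes inositol hexakisphosphate, at 0.76, and both were also called higher as deposited, at 0.34 and 0.28. ARG82, the kinase between them, was lower at -0.26, and SIW14, a pyrophosphatase, was at 0.43 when centred and -0.046 as deposited.

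The remaining genes of the list were GPP2, CTF19, PHM7, PHO13, PHO23, PHO86 and PHO88. CTF19, which encodes a kinetochore protein, had low signals of 484 and 391 in WT and 162 and 156 in nps1-13 and fell with -0.98 (SE 0.12, limma adjusted p = 5.6e-05). PHM7, named for phosphate metabolism, rose with 0.63 (SE 0.070) and was above 0 as deposited as well, at 0.15. GPP2, a glycerol phosphatase, did not pass when centred (-0.024, 95% interval -0.16 to 0.11) but was called lower as deposited (-0.50), after quantile normalization (-0.28) and with a common trimmed mean (-0.15). PHO13 and PHO23, the latter a subunit of a histone deacetylase complex, passed as higher when centred (0.20 and 0.16) and as lower on the deposited scale (-0.28 and -0.32), and PHO23 did not pass when centred without WT replicate 1 (0.15), WT replicate 2 (0.16) or nps1-13 replicate 2 (0.066). PHO86, which is needed for Pho84 to leave the endoplasmic reticulum, and PHO88 did not pass when centred, at 0.054 (95% interval -0.060 to 0.17) and 0.10 (95% interval -0.011 to 0.21), and were called lower as deposited and after quantile normalization.

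**Figure D3:**
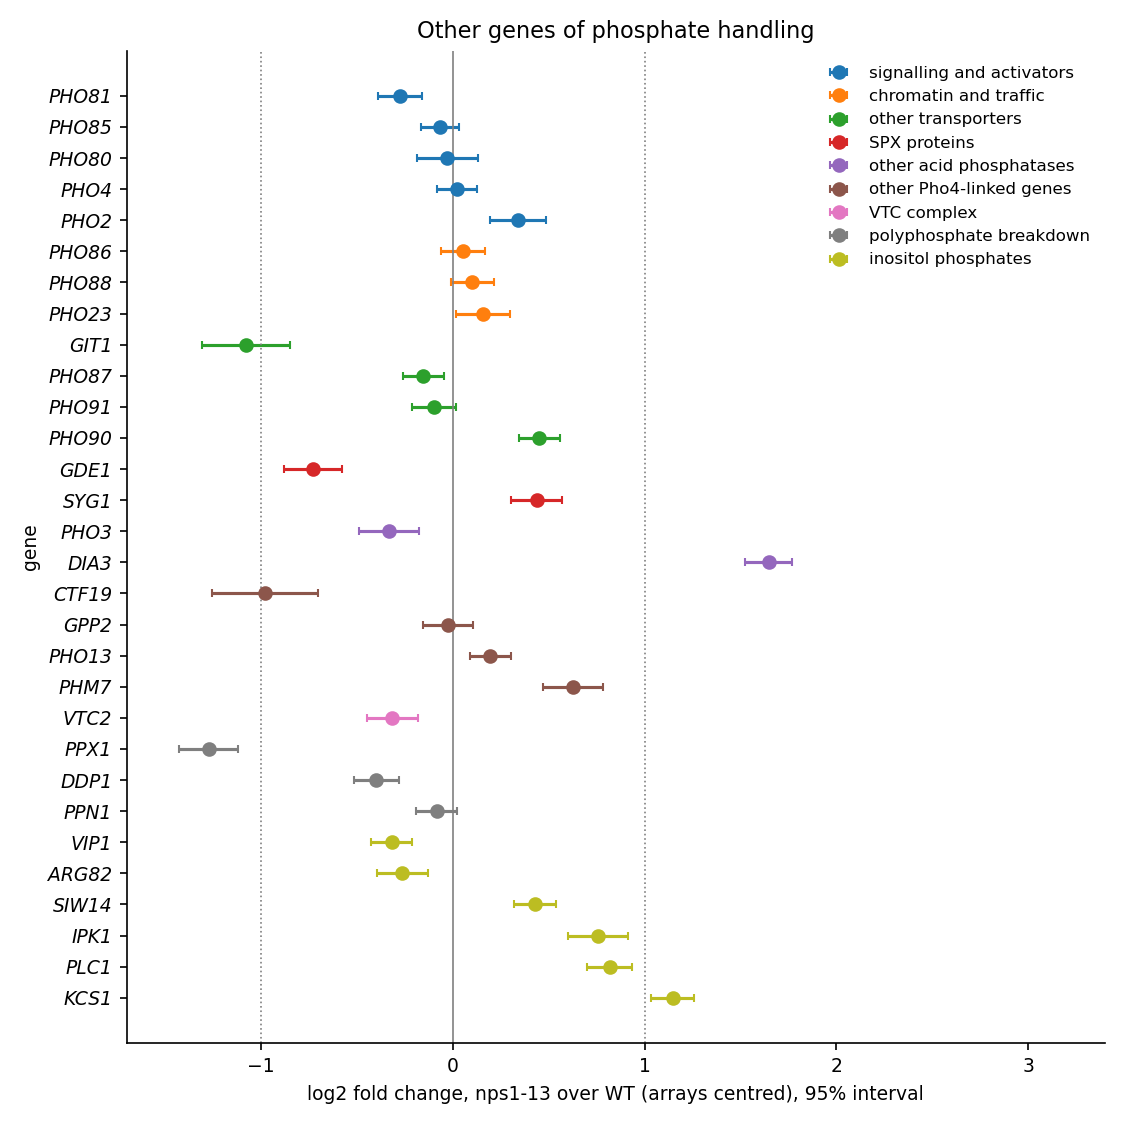
Log2 fold change, nps1-13 over WT with arrays centred on their medians, of 30 other genes of phosphate handling grouped by role (colours), each with its 95% interval; dotted lines mark 2-fold. PPX1 (-1.27) and GIT1 (-1.08) lie below the lower line and KCS1 (1.15) and DIA3 (1.65) above the upper one, while PHO4, PHO80 and PHO85 cover 0.

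The genes next to the 10 on their chromosomes were compared to see whether a change stopped at the phosphate gene. Of 20 such neighbours 18 were measured, and after centring 7 of them were lower, 6 higher and 5 did not pass, where 34.7% of all genes were lower and 42.6% higher. On that scale 0 were past 2-fold in either direction, with 5.03% of all genes lower and 4.83% higher. The log2 fold changes of the neighbours ran from -0.99 to 0.60. As deposited 4 were past 2-fold lower, with 16.7% of all genes: TUB3 (-1.14), ALD5 (-1.46), CTF19 (-1.45) and DIG2 (-1.03). ALD5 and CTF19 were so after quantile normalization (-1.10 and -1.03) and with a common trimmed mean (-1.12 and -1.11). Of all genes, 4.88% and 7.19% were past 2-fold lower on those scales. PHO84 has TUB3, an α-tubulin gene, downstream of it. TUB3 had 5720 and 5041 in WT and 2417 and 2443 in nps1-13 and was lower at -0.67 (SE 0.053), a smaller change than the -1.75 of PHO84. On either side of PHM6, RRP45, an exosome subunit gene, was at 0.20 (-0.27 as deposited, and 0.15 without WT replicate 2, where it did not pass) and MRX10 at -0.52 (SE 0.095). A pair of further cases was picked after the values were seen. VTC3 and CTF19 are divergent, with their starts facing each other, and fell together (-0.87 and -0.98), while ULP1 on the other side of VTC3 was at 0.24 and at -0.24 as deposited, and without WT replicate 2 (0.072), nps1-13 replicate 1 (0.27) or nps1-13 replicate 2 (0.20) it did not pass. PHO5 lies between PHO3 (-0.33) and the divergent gene PBY1, which did not pass when centred (-0.067, SE 0.047) and was called lower as deposited (-0.54) and with a common trimmed mean (-0.20). The differences between neighbours were not tested.

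**Figure D4:**
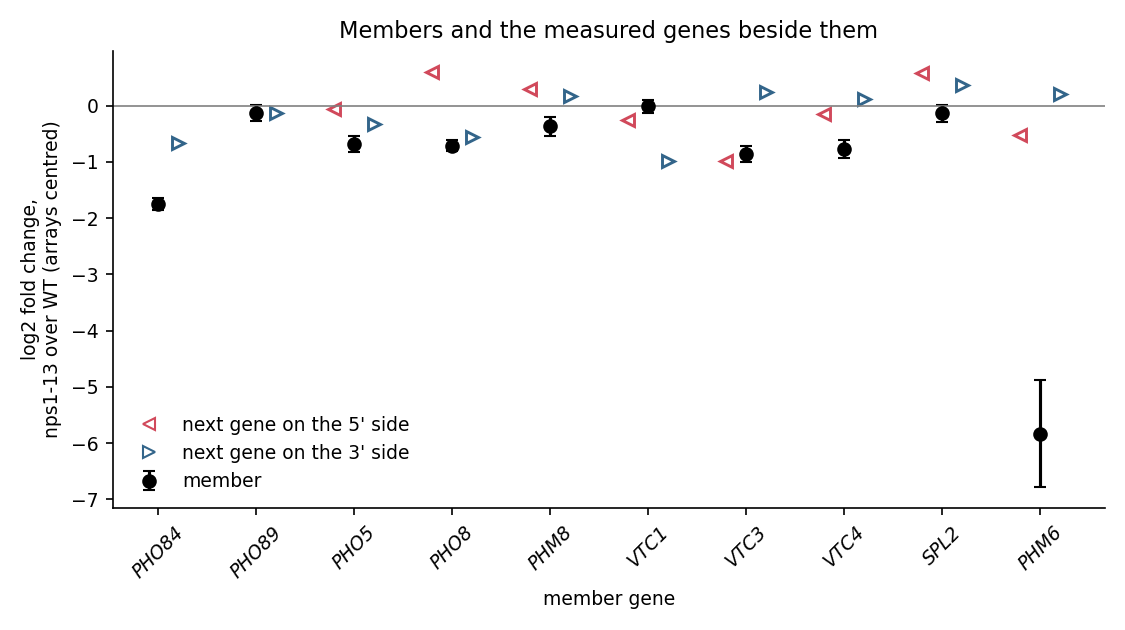
Log2 fold change, nps1-13 over WT with arrays centred on their medians, of each phosphate regulon gene (filled circles, 95% interval) and of the measured genes next to it on the 5′ side (left-pointing triangles) and the 3′ side (right-pointing triangles). The neighbours lie between -0.99 and 0.60, and TUB3 (-0.67), beside PHO84, is nearer to 0 than PHO84 itself (-1.75). PHM6, at background in nps1-13, has no resolved size.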

How the data were processed

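Signals of 4 one-colour Affymetrix Yeast Genome 2.0 arrays (2 WT, 2 nps1-13) were analysed. The deposited intensity values are linear signals per probe set. The paper describes GCOS software with its default analysis and global scaling of every array to the same trimmed mean, which the deposited columns do not show. Trimmed means over the deposited columns range from 3158 to 4285, so the arrays do not share 1 target, and they were centred on their median log2 signals before testing. Of 5558 probe sets, 5345 have 1 gene symbol in the platform annotation, 0 have several and 213 are unnamed here; for 2 genes with more than 1 probe set the brightest was used. All 5343 genes matched the RefSeq table of assembly R64, which gave the neighbours; a motif search planned for the promoters was not run and no sequence is shown.

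Log2 signals were fitted with limma 3.58.1 in R 4.3.3 (lmFit, then eBayes with a trend); p-values were adjusted by Benjamini-Hochberg across all 5343 genes, and those under 0.05 were called. Prior degrees of freedom came to 7.41, beside 2 residual ones, so errors are largely pooled over genes. A 2-fold change means a log2 fold change above 1 or below -1, without a test. Between 167 and 213 probe sets per array had a signal under 100, and precision is limited by the number of arrays. The 10 genes, the list of 34 and the neighbours were chosen with earlier results of these data known. The rule for naming took all 10 genes, the pathway's regulators, other transporters, VTC subunits and acid phosphatases, further genes of the list past 2-fold, the neighbours of members past 2-fold, and strain markers; the rest of the list was named after its values were seen, so that every gene is accounted for. Alternatives were other scalings (as deposited, quantile, common trimmed mean), a mean signal of at least 100 or 200, 32 added to the signal, eBayes without trend, averaging a gene's probe sets, a replicate block, and omitting each array in turn. Figures were drawn with matplotlib 3.10.9 in Python 3.11.15.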

Additional observations from a re-analysis of the deposited data

How the results depend on the processing

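Of the 10 phosphate regulon genes, 7 kept their direction and their call in all of the 14 alternatives in which they were fitted: PHO84, PHO5, PHO8, PHM8, VTC3, VTC4 and PHM6, the last left out of the fit at a mean signal of at least 200. PHO89, SPL2 and VTC1 passed in 14 values, and VTC1 ran from -0.032 to 0.0056 when each array was left out, above 0 only without WT replicate 2, and did not pass there. The counts of the 10 genes past 2-fold lower moved from 2 to 6 as deposited and to 1 at a mean signal of at least 200, where PHM6 was not fitted. On the deposited scale limma called 21 of the 30 other phosphate genes lower and 5 higher, and 4 were lower and 1 higher past 2-fold; over all genes 3435 were lower and 503 higher by limma, and 890 and 108 past 2-fold, with the median gene at -0.41. With arrays centred, all genes gave 1853 lower and 2274 higher, and 269 and 258 past 2-fold. Higher calls were thus a smaller part as deposited, where the WT arrays were brighter. The source of that brightness was not tested.

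Leaving out each array in turn, between 7 and 8 of the 10 were called lower and 0 higher, and 2 stayed past 2-fold lower. Of the 30 others 10 to 11 were lower and 10 to 11 higher, and 1 to 3 were past 2-fold lower and 2 higher. Over all genes 1621 to 1816 were lower and 1957 to 2226 higher, and 269 to 290 and 251 to 281 past 2-fold. PHO80 ran from -0.13 to 0.077, above 0 without nps1-13 replicate 1, and GPP2 from -0.055 to 0.0072, above 0 without WT replicate 2 and, at 4.8e-05, without nps1-13 replicate 1. GIT1 was not past 2-fold without nps1-13 replicate 2 (-0.98), nor after quantile normalization (-0.96).

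As deposited, the log2 fold changes that changed sign among the 10 genes, the 30 others and the neighbours described by name were those of PHO4 (-0.45), PHO2 (-0.14), PHO23 (-0.32), PHO86 (-0.42), PHO88 (-0.37), PHO90 (-0.023), SYG1 (-0.037), PHO13 (-0.28), SIW14 (-0.046), ULP1 (-0.24) and RRP45 (-0.27). After quantile normalization and with a common trimmed mean, PHO4 (-0.062 and -0.11), PHO86 (-0.11 and -0.077) and PHO88 (-0.095 and -0.029) did so too. Of the other neighbours, ARB1 (-0.18), YCK1 (-0.11), KRE29 (-0.30) and MAD3 (-0.35) changed sign as deposited and RPC17 (0.045) after quantile normalization.

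The replicate numbers were not shown to pair the arrays: the deviations of same-numbered arrays correlated at -0.12 across genes. With the replicate number as a block, 8 of the 10 genes were lower, 11 of the 30 others lower and 11 higher, and of all genes 1814 lower and 2255 higher, with PHO89 passing at -0.14 (adjusted p = 0.022 from limma). With the numbers crossed, an alternative added after seeing the data, the counts were 8 of 10, 11 and 11 of 30, and 1924 and 2307 of all genes.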
